A study of Mus musculus with 9 samples.

Results

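Mast cell proteases and receptors were represented by 9 genes of the 52550 gene rows in the deposited expression table: the granule proteases Mcpt4, Tpsab1, Tpsb2, Cma1 and Cpa3, the receptor genes Kit, Fcer1a and Ms4a2, and Hdc, which encodes the enzyme that makes histamine. They were found by matching the Ensembl gene identifiers of the rows to gene symbols, and all 9 were present. The proteases among them were selected on their FPKM values in the control libraries, between which they varied widely, so that spread is given here as a description and not tested.

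The study sequenced RNA of 4T1, a line of mammary carcinoma cells that arose in a BALB/c mouse. There were 3 libraries in each of 3 groups: Control, with no treatment named, PD-1, and LY500307+PD-1. PD-1 is an inhibitory receptor of T cells that is the target of checkpoint blockade, and the labels give only this name for the treatment, while LY500307 activates estrogen receptor beta. Neither culture nor tumour is named in the labels as the source of the RNA, and nothing there states that replicates are separate cultures or mice, so every p-value here reflects library-to-library spread that may be technical.

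Mast cells are resident immune cells of connective tissue and mucosa. They store proteases bound to heparin together with histamine in granules, and release them when antigen cross-links IgE on its high-affinity receptor. They depend on stem cell factor, the ligand of Kit, and are found in many tumours, the mammary gland among them.

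Levels are given in FPKM, fragments scaled by transcript length and by sequencing depth, a unit that allows levels of different genes to be compared per length. The spacing of the low values gave a rough estimate of between 8220000 and 8670000 fragments per library. Only 13.9% to 26.6% of these values lay within 0.02 of a whole fragment. The summed level of the mammary epithelial genes Krt8, Krt18, Epcam and Cdh1 ran from 1300 to 3220 FPKM over the 9 libraries. Macrophage genes (Lyz2, Csf1r, Adgre1, Mrc1 and C1qa) summed to between 495 and 1690 FPKM, and the T cell genes Cd3e, Cd4 and Cd8a to between 2.38 and 8.59 FPKM, so genes of cells other than the labelled line were present in every library. In bulk RNA, fewer cells of a type and less RNA per cell cannot be told apart.

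The promoters of 3 proteases and of the alpha and beta subunits of the IgE receptor are shown. The proteases and Fcer1a had levels that followed each other over the 9 libraries, and Ms4a2 encodes a subunit of the same receptor as Fcer1a. Each is the 250 bases before the gene's start in RefSeq on GRCm38.p6, 5′ to 3′ on the gene's strand. Capitals mark GATAA, the core letters bound by GATA factors, or TTATC, the same letters on the other strand.
Cpa3, chr3:20242182-20242431, minus strand: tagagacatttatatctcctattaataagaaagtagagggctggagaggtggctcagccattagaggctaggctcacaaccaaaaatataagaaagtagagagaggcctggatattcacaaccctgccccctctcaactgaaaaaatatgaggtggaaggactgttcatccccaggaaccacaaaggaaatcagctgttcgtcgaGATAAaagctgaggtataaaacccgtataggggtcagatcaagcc
Mcpt4, chr14:56062311-56062560, minus strand: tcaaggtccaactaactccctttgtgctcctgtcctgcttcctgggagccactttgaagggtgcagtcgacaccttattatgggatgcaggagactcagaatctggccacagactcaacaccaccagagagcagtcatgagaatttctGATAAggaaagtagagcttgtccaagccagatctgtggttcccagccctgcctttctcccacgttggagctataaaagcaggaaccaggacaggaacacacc
Cma1, chr14:55944676-55944925, minus strand: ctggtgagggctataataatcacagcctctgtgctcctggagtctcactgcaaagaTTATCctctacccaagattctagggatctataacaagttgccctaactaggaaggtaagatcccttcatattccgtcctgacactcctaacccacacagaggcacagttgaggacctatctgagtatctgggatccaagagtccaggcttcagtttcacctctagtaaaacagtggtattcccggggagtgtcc
Fcer1a, chr1:173227230-173227479, minus strand: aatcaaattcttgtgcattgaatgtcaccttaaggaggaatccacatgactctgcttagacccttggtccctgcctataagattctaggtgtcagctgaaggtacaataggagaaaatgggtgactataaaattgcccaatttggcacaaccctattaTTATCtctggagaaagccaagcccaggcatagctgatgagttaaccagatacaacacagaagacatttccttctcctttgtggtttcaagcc
Ms4a2, chr19:11623720-11623969, minus strand: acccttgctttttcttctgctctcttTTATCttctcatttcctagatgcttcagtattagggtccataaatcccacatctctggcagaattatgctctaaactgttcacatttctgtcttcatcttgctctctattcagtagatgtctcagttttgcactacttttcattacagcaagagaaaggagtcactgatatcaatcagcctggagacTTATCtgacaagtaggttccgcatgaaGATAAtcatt

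GATAA was searched on both strands in the windows of the 7 genes that the promoter table held (8 windows, since Kit had more than 1). The windows of Cpa3, Mcpt4, Cma1 and Fcer1a each held 1 match, that of Ms4a2 held 3, and those of Kit and Hdc held none. Of all 32851 such windows in the table, 22.6% held at least 1 match. A match describes letters and not a site in use, and a window with none says only that these letters are not in it. The promoters of Tpsab1 and Tpsb2 were not used here.

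The tryptases Tpsb2 and Tpsab1, trypsin-like proteases that form tetramers in the granule, were the most abundant of the 9 genes. Tpsb2 (ENSMUSG00000033825.9, chr17:25366305-25369098, plus strand, GRCm38) measured 2.09, 25.4 and 144 FPKM in control replicates 1, 2 and 3. It measured 48.8, 47.7 and 23.3 FPKM in the PD-1 libraries. In the LY500307+PD-1 libraries it measured 74.7, 20.1 and 71.3 FPKM. Control 1 was lowest and control 3 highest of all 9 libraries, and the 3 groups overlapped. Tpsab1 (ENSMUSG00000024173.10, chr17:25343245-25345562, minus strand), its neighbour on the same chromosome, measured 1.54, 24.5 and 131 FPKM in the controls. In PD-1 it was at 48.2, 37.4 and 19.3 FPKM, and in LY500307+PD-1 at 70.9, 19.5 and 64.9 FPKM. RefSeq lists Tpsab1 in the reference genome as a transcribed pseudogene, whereas GENCODE M21 holds a coding transcript of it with 930 coding bases. Whether the gene is intact in these libraries was not tested. The libraries ordered in nearly the same way for both tryptases, with control 1 and control 3 at the ends. The ratio of Tpsb2 to Tpsab1 stayed between 1.01 and 1.36 in every library.

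The coding sequences of the tryptase genes are shown where they differ most, because reads from near-identical copies can be assigned to the wrong gene. The stretches are 60 aligned bases of their coding sequences on GRCm38, with the bases that differ in capitals.
Tpsb2, coding bases 238 to 297: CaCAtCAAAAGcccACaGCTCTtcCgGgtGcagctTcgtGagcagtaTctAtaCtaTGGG
Tpsab1, coding bases 340 to 399: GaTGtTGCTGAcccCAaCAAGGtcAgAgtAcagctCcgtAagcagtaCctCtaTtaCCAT

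Over 819 aligned bases the coding sequences of the tryptase pair were 75.3% identical, and their longest identical run was 39 bases. Over whole transcripts they shared no run of 50 bases. Of the 45 pairs among 10 mast cell and basophil protease genes, 1 pair, Mcpt4 with Mcpt9, shared a run of 50 bases, and 7 pairs shared a run of 30 bases. How the authors assigned reads that match more than 1 gene is not given in the sources used here, so the levels of Mcpt4 and of both tryptases carry that uncertainty.

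The chymase Mcpt4, a chymotrypsin-like protease of connective tissue mast cells (ENSMUSG00000061068.6, chr14:56059629-56062313, minus strand), measured 0.302, 11.3 and 64.1 FPKM in the controls. Its level in control 1 corresponds to about 2.8 fragments by the rough estimate of depth, so its fold difference to other libraries is poorly measured. The PD-1 libraries held 24.4, 22.5 and 11.8 FPKM, and the LY500307+PD-1 libraries 43.9, 25.7 and 39.5 FPKM. Each LY500307+PD-1 library was above every PD-1 library, while both groups lay within the range of the controls. Cma1, a second chymase-family protease with elastase-like activity in mice (ENSMUSG00000022225.6, chr14:55941451-55944675, minus strand), measured 0.555, 5.84 and 42.7 FPKM in the controls. It was at 19.4, 9.43 and 6.32 FPKM in PD-1, and at 26.3, 12.9 and 27 FPKM in LY500307+PD-1. The treated groups overlapped each other and lay inside the control range.

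Cpa3, the mast cell carboxypeptidase that trims the C-terminal residues of peptides (ENSMUSG00000001865.2, chr3:20215620-20242181, minus strand), was the least abundant of the 5 proteases by its mean. The controls held 0.432, 4.15 and 25.3 FPKM. The PD-1 libraries held 13.1, 9.46 and 4.42 FPKM, and the LY500307+PD-1 libraries 14.1, 5.37 and 13.8 FPKM. Again control 1 was lowest, control 3 highest and the treated groups lay between them.

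**Figure D1:**
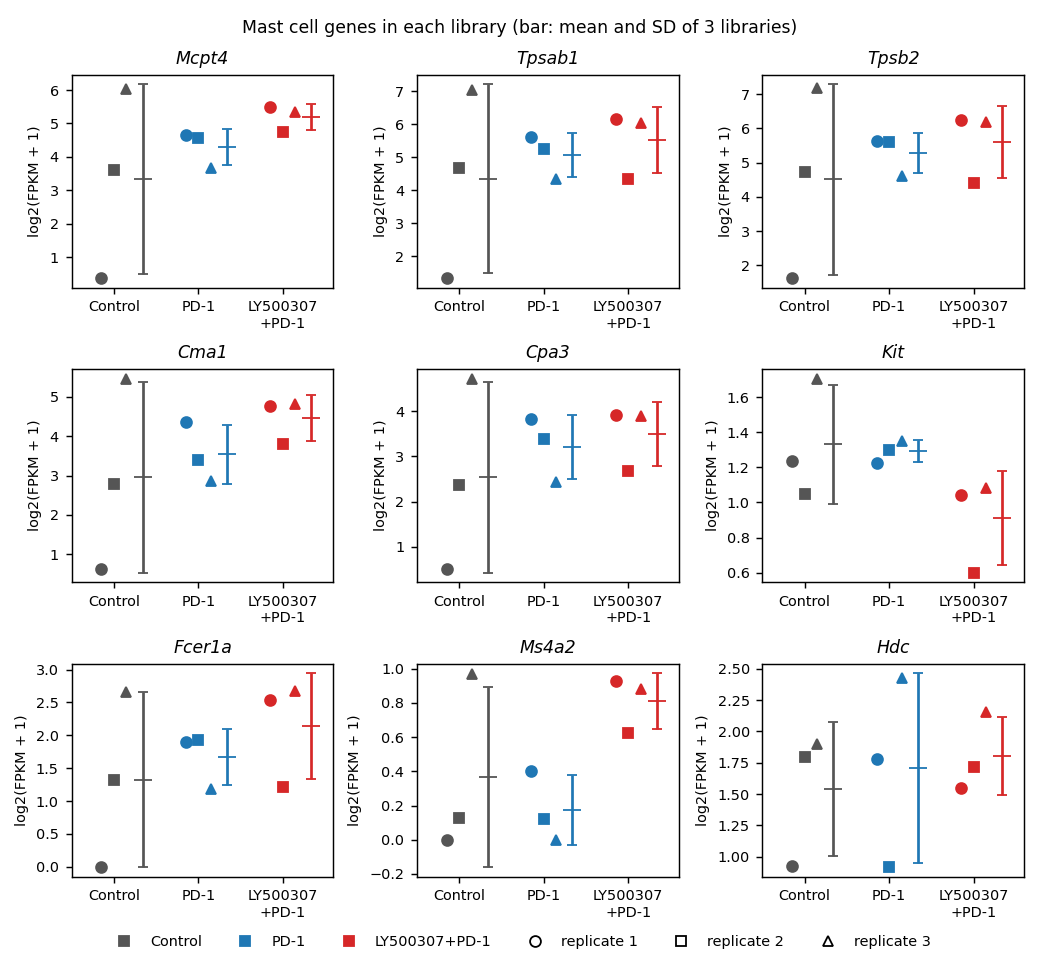
Level of each of the 9 genes as log2(FPKM + 1), by group. Points are libraries, with the marker shape giving the replicate number, and the bar beside them is the mean and SD of 3 libraries. The 5 proteases and Fcer1a are lowest in control 1 and their control points spread more widely than the treated ones, which Kit and Hdc do not show to that extent.

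The alpha subunit of the high-affinity IgE receptor, Fcer1a, which binds IgE (ENSMUSG00000005339.10, chr1:173221284-173227214, minus strand), was listed at 0 in control 1 and measured 1.49 and 5.32 FPKM in controls 2 and 3. It measured 2.74, 2.79 and 1.26 FPKM in PD-1 and 4.78, 1.33 and 5.37 FPKM in LY500307+PD-1. Like the proteases, it was lowest in control 1, and among the treated libraries PD-1 replicate 3 and LY500307+PD-1 replicate 2 were low. The beta subunit Ms4a2, which amplifies signalling of that receptor (ENSMUSG00000024680.12, chr19:11615523-11623719, minus strand), stayed under 1 FPKM in every library, at 0, 0.093 and 0.955 FPKM in the controls. It was at 0.321, 0.087 and 0 FPKM in PD-1 and at 0.901, 0.541 and 0.838 FPKM in LY500307+PD-1. All 3 LY500307+PD-1 libraries lay above all 3 PD-1 libraries, and control 3 lay above them all.

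Kit, the receptor tyrosine kinase for stem cell factor, is made by mast cells and by several other cell types (ENSMUSG00000005672.12, chr5:75574916-75656722, plus strand). It measured 1.36, 1.07 and 2.26 FPKM in the controls, 1.34, 1.46 and 1.55 FPKM in PD-1, and 1.06, 0.516 and 1.12 FPKM in LY500307+PD-1. Every LY500307+PD-1 library lay below every PD-1 library, and control 1 held more Kit than control 2. Hdc, histidine decarboxylase, makes histamine in mast cells, basophils and neutrophils (ENSMUSG00000027360.5, chr2:126593667-126619299, minus strand). It measured 0.898, 2.47 and 2.73 FPKM in the controls, 2.44, 0.889 and 4.36 FPKM in PD-1, and 1.92, 2.28 and 3.45 FPKM in LY500307+PD-1. Its highest library, PD-1 replicate 3, was low for the proteases and held the highest summed level of the neutrophil genes S100a8, S100a9 and Ngp, 664 FPKM against 47.6 to 453 FPKM in the others. The part of neutrophils in that Hdc level was not tested.

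Summed over the 5 proteases, the libraries ran from 4.92 FPKM in control 1 through 65.1 FPKM in PD-1 replicate 3 and 71.3 FPKM in control 2 to 407 FPKM in control 3. The group means were 161 ± 216 FPKM in Control, 115 ± 45.5 FPKM in PD-1 and 177 ± 80.9 FPKM in LY500307+PD-1 (SD, n = 3). The highest library was 82.8 times the lowest among the controls, 2.37 times in PD-1 and 2.75 times in LY500307+PD-1. The control group thus held both ends of the whole series, and its mean rests on control 3.

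On the log2(FPKM + 1) scale the SD between controls was 2.87 for Tpsab1, 2.83 for Mcpt4, 2.78 for Tpsb2, 2.41 for Cma1 and 2.11 for Cpa3. These ranked 4, 5, 6, 15 and 24 among the 13990 genes that reached 1 FPKM in at least 3 libraries, whose median SD between controls was 0.197. Fcer1a had an SD of 1.33 and ranked 77, while the SDs of Hdc and Kit were 0.535 and 0.338. An SD above 1 between controls was found in 1.55% of all genes. Without control 1 the SD of Mcpt4 was 1.70, and the lowest SD with any 1 control left out was 1.68 for Tpsab1, 1.51 for Cma1 and 1.31 for Cpa3.

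The same measure was read in the treated groups, again as a description. In PD-1 the SD of the 5 proteases ran from 0.546 to 0.75 against a median of 0.17 over all genes. In LY500307+PD-1 it was 1.05 for Tpsb2, 1.01 for Tpsab1, 0.71 for Cpa3, 0.575 for Cma1 and 0.396 for Mcpt4, against a median of 0.185. The proteases lay between the 83.8 and 98.98 percentiles of all genes in these groups. Genes outside the proteases were at like percentiles in places. Hdc had an SD of 0.755 in PD-1 (97.73 percentile), above all 5 proteases, and 0.312 in LY500307+PD-1 (74.86 percentile). Fcer1a lay at the 89 percentile in PD-1 and the 97.46 percentile in LY500307+PD-1, and Kit at the 11.54 and 68.08 percentiles.

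**Figure D2:**
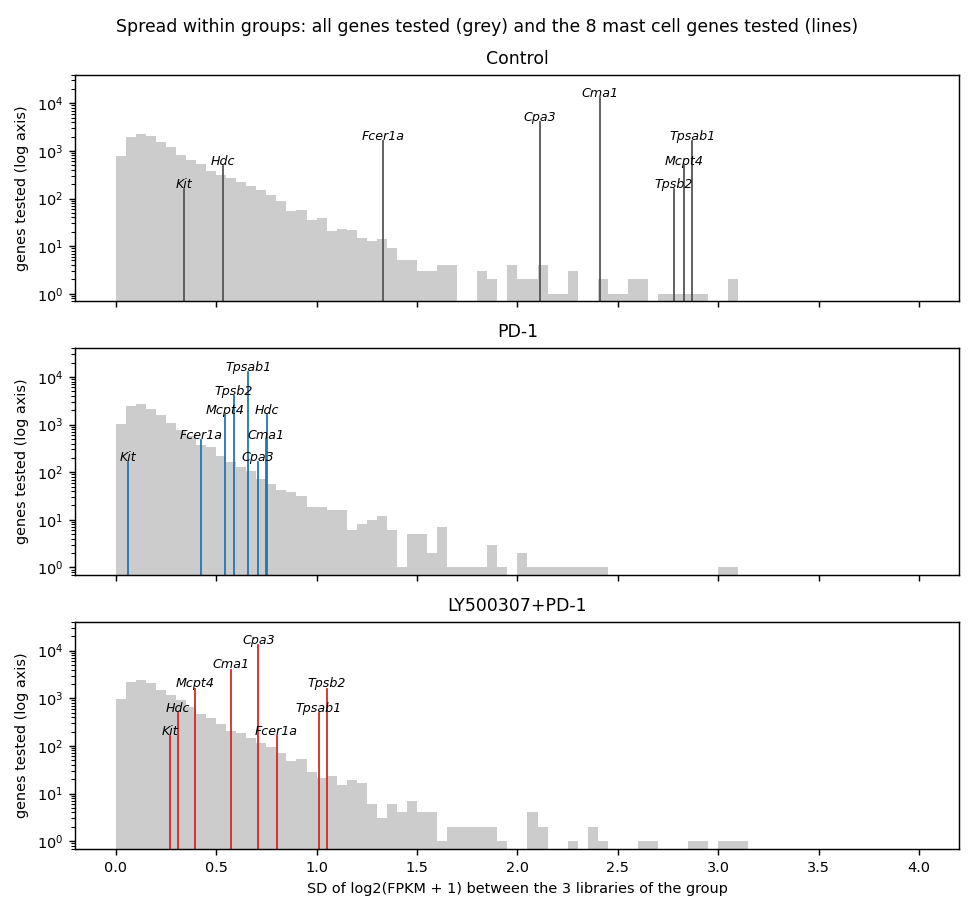
Number of genes (log axis) at each SD of log2(FPKM + 1) between the 3 libraries of a group, for all 13990 genes tested in grey, with lines for the 8 mast cell genes among them. In Control the 5 proteases lie between 2.11 and 2.87, far to the right of the median of 0.197, and in the treated groups they lie between 0.396 and 1.05.

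The proteases kept similar proportions to each other while their levels changed. Control 1 is left out of these ranges because of its few fragments. Over the other 8 libraries Tpsab1 varied 6.81-fold in level but its ratio to Cpa3 varied 1.63-fold, from 3.63 to 5.91. The ratio of Tpsb2 to Cpa3 ran from 3.71 to 6.12, and that of Fcer1a to Cpa3 from 0.208 to 0.389. Mcpt4 and Cma1 kept their proportion less closely, at 1.86 to 4.79 and 0.997 to 2.4 times Cpa3, with the highest ratio of each in LY500307+PD-1 replicate 2. In that library Mcpt4 made up 30.8% of the summed protease level and in control 2 it made up 15.9%. By contrast, the ratio of Hdc to Cpa3 varied 10.5-fold and that of Kit 4.67-fold.

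Over all 9 libraries, log2(FPKM + 1) of Cpa3 had a Pearson r of 0.984 with Tpsab1 and with Tpsb2, 0.974 with Cma1, 0.965 with Fcer1a and 0.955 with Mcpt4. The Spearman rho was 0.95, 0.933, 0.967, 0.883 and 0.95. These values are a description, because the control libraries chosen for their spread are among the points, and all genes share the same libraries and depth. Without control 1 and control 3, the libraries farthest from the median of Cpa3, r was 0.951 for Tpsab1, 0.943 for Tpsb2, 0.921 for Fcer1a, 0.896 for Cma1 and 0.857 for Mcpt4. After subtraction of group means r lay between 0.964 and 0.99 for these 5 genes. Over all 9 libraries Ms4a2 had an r of 0.755, Hdc 0.368 and Kit 0.277, with rho of 0.87, 0.167 and 0.0833. With group means subtracted, r was 0.944 for Ms4a2, 0.316 for Hdc and 0.662 for Kit.

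The same relations were computed in the 6 treated libraries alone, a subset taken after seeing the data and with the genes chosen knowing results of all 9 libraries, so the p-values are not independent evidence. Tpsab1 passed by both measures, with r = 0.977 (exact permutation, two-sided, adjusted p = 0.0111 over 8 relations, n = 6) and rho = 1 (exact permutation, adjusted p = 0.0222, n = 6). Tpsb2 at r = 0.952 and Fcer1a at r = 0.923 passed by r (exact permutation, adjusted p = 0.0333 for both, n = 6). Neither passed by rank, at rho of 0.943 and 0.886 (exact permutation, adjusted p = 0.0667 for both, n = 6). Cma1 did not pass at r = 0.855 and rho = 0.886 (exact permutation, adjusted p = 0.0778 and 0.0667, n = 6), nor did Mcpt4 at r = 0.795 and rho = 0.829 (exact permutation, adjusted p = 0.107 and 0.0778, n = 6). Ms4a2 at r = 0.601, Kit at 0.153 and Hdc at -0.297 did not pass either (exact permutation, adjusted p = 0.276, 0.829 and 0.646, n = 6). Their rho was 0.829, -0.429 and -0.314 (exact permutation, adjusted p = 0.0778, 0.479 and 0.564, n = 6). Without LY500307+PD-1 replicate 2 and PD-1 replicate 3, which were farthest from the median of Cpa3, r over 4 libraries was 0.903 for Tpsab1, 0.722 for Tpsb2 and 0.663 for Fcer1a. Among the genes that did not pass it was 0.983 for Cma1, 0.876 for Ms4a2, 0.853 for Hdc, 0.759 for Mcpt4 and -0.852 for Kit. So r over 4 libraries did not separate the genes that passed from the others.

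**Figure D3:**
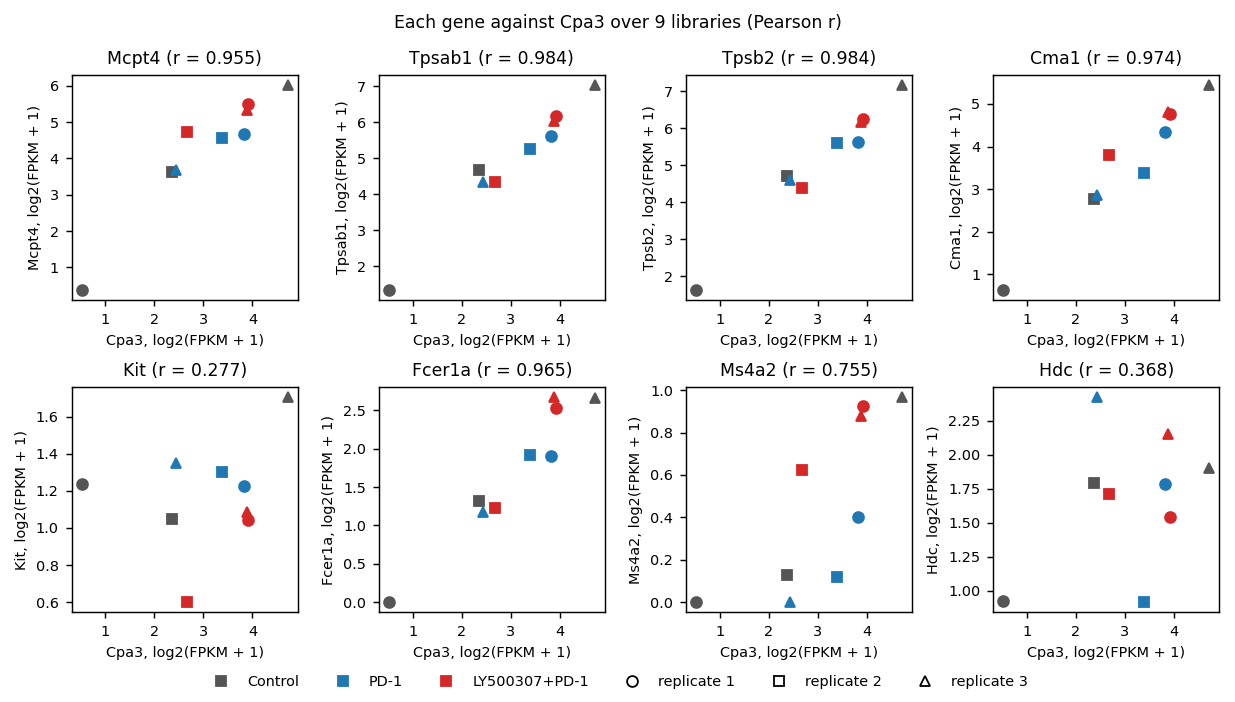
Each of the other 8 genes against Cpa3, both as log2(FPKM + 1), in 9 libraries, with color for the group, marker shape for the replicate number and Pearson r in each title. Tpsab1, Tpsb2, Cma1, Fcer1a and Mcpt4 lie close to a line (r from 0.955 to 0.984), whereas Kit (0.277) and Hdc (0.368) scatter.

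The effect of treatment was examined by fitting limma to log2(FPKM + 1) of all 13990 genes in all 9 libraries and adjusting p over all of them by Benjamini-Hochberg. Ms4a2 did not reach 1 FPKM in any library and was left out, so 8 of the 9 genes were tested. Both treated groups were compared with the same control libraries, so these comparisons are not independent.

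In PD-1 against control no gene of the 8 passed the test, and the background of all genes called was 0% (0 of 13990 genes at an adjusted p under 0.05 by limma, 342 or 2.44% at an unadjusted p under 0.05). None of the 8 had an unadjusted p under 0.05. The log2 fold changes were 0.96 (SE 1.13) for Mcpt4, 0.77 (SE 1.18) for Tpsb2 and 0.72 (SE 1.21) for Tpsab1. Those of Cpa3 and Cma1 were 0.68 (SE 0.91) and 0.58 (SE 1.01). They were 0.34 (SE 0.63) for Fcer1a, 0.17 (SE 0.39) for Hdc and -0.04 (SE 0.21) for Kit. The 95% interval for Tpsb2, from -1.89 to 3.44, spans a fall and a rise of several fold, whereas that for Kit runs from -0.51 to 0.44. All 8 had a limma adjusted p of 1. The sign of the protease differences depended on control 1: without it the median over the 8 genes was -0.43, against 0.63 with all 9 libraries and -0.01 over all genes. Without control 3 it was 1.802. No gene of the 8 had groups that stood fully apart, against 6.68% of all genes, and 7 of the 8 lay above 0, against 48.3%.

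In LY500307+PD-1 against control no gene of the 8 passed the test either, and the background was again 0% (0 of 13990 genes at an adjusted p under 0.05 by limma, 561 or 4.01% at an unadjusted p under 0.05, with none of the 8). The log2 fold change of Mcpt4 was 1.85 with an SE of 1.13 and a 95% interval of -0.72 to 4.41, and Cma1 one of 1.50 (SE 1.01). Tpsab1, Tpsb2 and Cpa3 were at 1.17 (SE 1.21), 1.10 (SE 1.18) and 0.96 (SE 0.91), Fcer1a at 0.82 (SE 0.63) and Hdc at 0.27 (SE 0.39). Kit was at -0.42 (SE 0.21, 95% interval -0.90 to 0.06, limma adjusted p = 1). Groups stood fully apart for no gene of the 8, against 7.94% of all genes, and 7 of the 8 lay above 0, against 49.4%. The median was 1.03 over the 8 genes, -0.05 without control 1, 2.24 without control 3 and -0.002 over all genes.

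In LY500307+PD-1 against PD-1 no gene of the 8 passed the test, against a background of 0% (0 of 13990 genes at an adjusted p under 0.05 by limma, 398 or 2.84% at an unadjusted p under 0.05, with none of the 8). Groups stood fully apart for 2 of the 8, where 7.6% of all genes did so: Mcpt4 was higher in LY500307+PD-1 (3.54% of all genes) and Kit was lower (4.06%). For Mcpt4 the means were 36.4 ± 9.47 and 19.6 ± 6.84 FPKM (SD, n = 3), and the log2 fold change was 0.89 with an SE of 1.13 (95% interval -1.68 to 3.46, limma adjusted p = 1). The estimate of the spread in that fit includes the controls. With the 6 libraries of the comparison alone the difference was the same, its SE was 0.31 and its 95% interval 0.17 to 1.61, with an unadjusted p of 0.0228 and a limma adjusted p of 1. In that fit 461 of 13990 genes had an unadjusted p under 0.05 by limma, and Mcpt4 was the only 1 of the 8. The intervals of Cma1 (-0.07 to 1.92) and Kit (-0.82 to 0.06) included 0 there. For Kit the means were 0.9 ± 0.334 and 1.45 ± 0.108 FPKM (SD, n = 3), and the log2 fold change was -0.38 with an SE of 0.21 (95% interval -0.86 to 0.09, limma adjusted p = 1). The other 6 genes had log2 fold changes from 0.10 for Hdc to 0.92 for Cma1 and overlapping groups, so 7 of the 8 lay above 0, against 51% of all genes, with a median of 0.39. Leaving out replicate 1, 2 or 3 of the LY500307+PD-1 group gave medians of 0.18, 0.93 and 0.13. Leaving out replicate 1, 2 or 3 of the PD-1 group gave 0.58, 0.51 and 0.15. Ms4a2, fitted without the filter on low values among 27447 genes, was at 0.64 (SE 0.25, limma unadjusted p = 0.0344, adjusted p = 1). Its groups did not overlap, as for 6.66% of those genes.

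**Figure D4:**
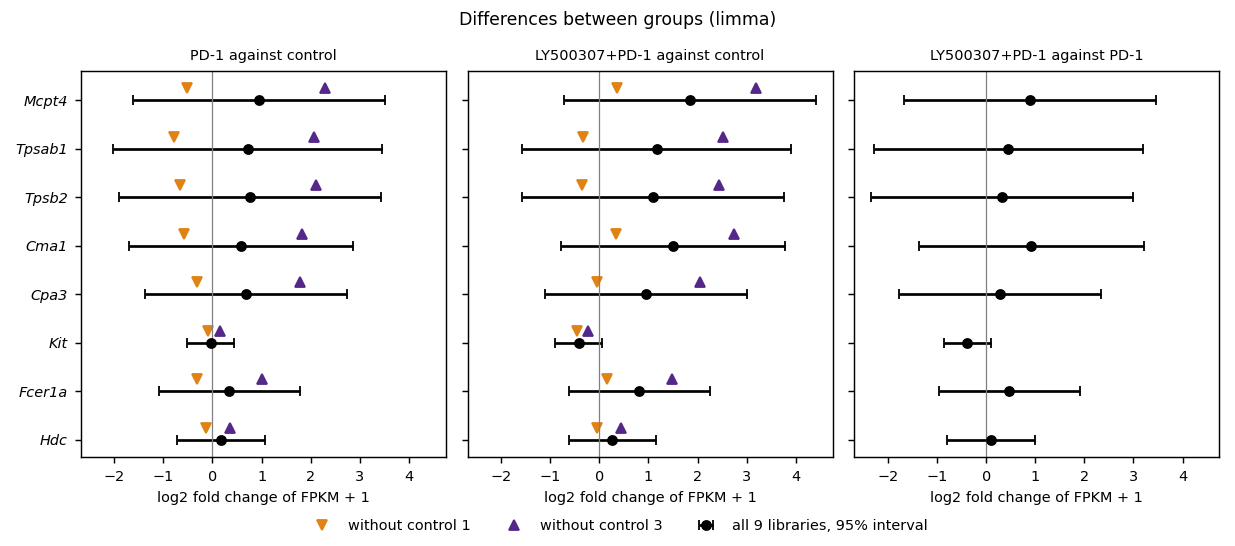
Log2 fold change of FPKM + 1 for the 8 genes tested in each comparison, with circles and 95% intervals from the limma fit of all 9 libraries. Triangles give the fold change without control 1 (pointing down) and without control 3 (pointing up), for both comparisons with Control. The intervals of all 8 genes include 0 in each comparison, and in PD-1 against control the 5 proteases lie below 0 without control 1.

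Other genes of mast cell biology were read in the same fits. Of 8 further mast cell and basophil proteases, 4 were tested and none passed. Mcpt1 and Mcpt2, chymases of mucosal mast cells, measured 1.04, 21.2 and 69.2 FPKM and 1.24, 19.3 and 70.7 FPKM in the controls, the same order as the 5 proteases. In PD-1 Mcpt1 was at 8.1, 23.5 and 19.3 FPKM, lowest in the library where the summed proteases were highest, and Mcpt2 was at 22, 29.9 and 13.3 FPKM. In LY500307+PD-1 they were at 27.9, 14.7 and 47.3 FPKM and at 27.5, 12.5 and 35.1 FPKM, both lowest in replicate 2. Mcpt8, a basophil protease, measured 1.38, 7.43 and 1.29 FPKM in the controls, an order of its own, and was highest in LY500307+PD-1 replicate 2 at 10.1 FPKM. Over the 8 libraries without control 1, the ratio to Cpa3 varied 2.79-fold for Mcpt2, 8.28-fold for Mcpt1 and 36.8-fold for Mcpt8.

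Of 11 genes that carry the IgE receptor signal, all were tested and none passed in any comparison. Fcer1g, the gamma chain shared with other Fc receptors and made by myeloid cells generally, measured 54.1, 52.8 and 130 FPKM in the controls, so control 1 and control 2 did not differ there as they did in Fcer1a. In PD-1 against control 4 of the 11 had fold changes above 0, 3 did in LY500307+PD-1 against control, and 6 did when the treated groups were set against each other. Plcg1, a phospholipase of that pathway named after its values were seen, had the only unadjusted p under 0.05, with a log2 fold change of -0.63 (SE 0.27, limma unadjusted p = 0.0429, adjusted p = 1) in PD-1 against control.

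Of 7 growth factors and their receptors, 4 were tested and none passed. Kitl, which encodes stem cell factor, ran from 3.78 to 8.67 FPKM over the 9 libraries, and was at 8.06, 3.78 and 8.26 FPKM in the controls, highest in control 3 as the proteases were but lowest in control 2. Il3 was listed at 0 in every library. Of 4 transcription factors only Mitf was tested. It did not pass, and Gata2 ran from 0.105 to 1.08 FPKM. Of 9 genes for making and storing mediators, 8 were tested and none passed. Ptgs1, the cyclooxygenase that starts prostaglandin synthesis, measured 12.3, 13.4 and 17.1 FPKM in Control and 8.74, 8.03 and 8.63 FPKM in LY500307+PD-1. Its groups did not overlap in that comparison, which held for 1 of the 8 genes and for 7.94% of all genes. Its log2 fold change there was -0.68 (SE 0.15, limma unadjusted p = 0.00135, adjusted p = 1). In PD-1 against control it was at -0.41 (SE 0.15, limma unadjusted p = 0.0223, adjusted p = 1). Ptgs1 had the lowest unadjusted p of the 8 in both comparisons, so its values do not stand for the list. Srgn and Alox5ap, with higher means of 47.2 and 25.1 FPKM, were at -0.30 (SE 0.31) and 0.43 (SE 0.29) in LY500307+PD-1 against control. Of the 8 genes, 2 lay above 0 there and 6 below. Of 7 further surface genes, 2 were tested and none passed. Mrgprb1, a receptor of the Mas-related family, was at 0.0285, 0.339 and 1.62 FPKM in the controls, again lowest in control 1 and highest in control 3. Mrgprb2 and Cd200r3 had that order too. Cd63, the other gene tested and the most abundant of the list, did not, at 144, 203 and 183 FPKM. Adora3 was lowest in control 2, at 0.783, 0.5 and 1.17 FPKM.

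The level of the proteases was also set beside marker genes of other cells. Control 3 had the highest summed level of the macrophage genes, 1690 FPKM, and of the T cell genes, 8.59 FPKM, as well as of the proteases. Control 1, with the lowest proteases, held 1080 FPKM of macrophage genes and 4.43 FPKM of T cell genes, above control 2 with 495 and 2.38 FPKM. Fibroblast genes (Col1a1, Col1a2, Col3a1, Dcn, Lum and Pdgfra) summed to 410, 433 and 337 FPKM in the 3 controls. LY500307+PD-1 replicate 2, the lowest of its group for all 5 proteases, had the highest sums of the epidermal genes Krt5, Krt14, Krt1, Krt10 and Lor, 644 FPKM, and of 5 skeletal muscle genes, 106 FPKM. The part of these cells in the protease levels was not tested. Of the eosinophil genes Siglecf, Ccr3, Prg2 and Epx, the summed level was at most 0.278 FPKM, and of the 4 melanocyte genes Dct, Tyr and Mlana were listed at 0 throughout, while Pmel ran from 0.624 to 1.35 FPKM.

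**Figure D5:**
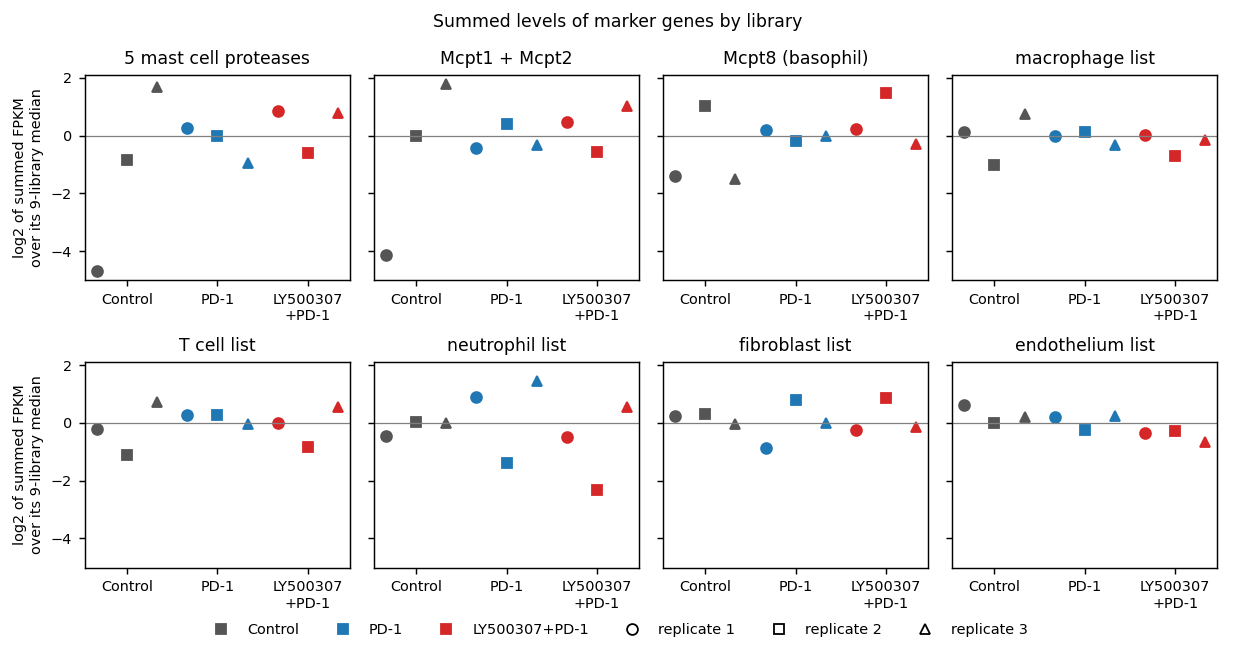
Summed FPKM of marker genes in each library, as log2 of its ratio to the median of the 9 libraries, with color for the group and marker shape for the replicate number. The proteases and Mcpt1 with Mcpt2 share a low point in control 1 and a high point in control 3, while the macrophage, T cell, fibroblast and endothelial lists do not share the low point in control 1.

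Among 11591 other genes, those whose log2(FPKM + 1) followed the mean z-score of the 5 proteases most closely over 9 libraries were Mcpt2 (r = 0.965), Clec4a1 (0.96), Cd72 (0.956), Npc1 (0.95) and Ankrd54 (0.946). Isoc2a, Ficd, H2-T23, Mapkapk3 and Vsir followed with r from 0.942 to 0.913. In all, 18 genes had r above 0.9, and the median r over all genes was -0.03. Without control 1, r was 0.955 for Clec4a1, 0.953 for Cd72, 0.945 for Npc1 and 0.884 for Mcpt2. These are descriptions chosen as the highest of many, over libraries that share the low value of control 1.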

How the data were processed

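RNA-seq libraries were made from total RNA depleted of ribosomal RNA with a stranded kit, per the labels' protocols. The deposited table names no unit, and its values were read as FPKM from their range and sums. CASAVA 1.8, Bowtie2 and DESeq2 appear in the submitters' processing notes without a role, as does the build mm9. Which counter, annotation and strand setting the authors used is not given in the sources used here. Rows were matched by Ensembl gene identifier without version to GENCODE M21 on GRCm38, which named 52403 of 52550 rows (99.7%). With the version, 49035 rows had the same identifier there, and GRCm38 is a later build than mm9. FPKM sums per library ran from 348764 to 370214. Between 13.9% and 26.6% of low values lay within 0.02 of a whole fragment, so reads were not recovered and no count test was run.

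Groups were taken from sample titles, since the treatment labels of PD-1 replicates 2 and 3 carry other numbers. The 13990 genes with at least 1 FPKM in 3 or more libraries were fitted as log2(FPKM + 1), a scale that understates the change of low genes, with limma 3.58.1 in R 4.3.3 (trend and robust moderation). All 9 libraries shared 1 estimate of the spread, and a gene passed with an adjusted p (Benjamini-Hochberg) under 0.05. Correlations used exact permutation tests, two-sided (scipy 1.17.1). The fit was tested on simulated data. The genes and lists were chosen with earlier results of these data known. Besides the 9 genes, the text names the 10 genes of most like pattern and up to 4 genes per mast cell list with the highest mean FPKM, with exceptions stated. Promoters are RefSeq's.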

Additional observations from a re-analysis of the deposited data

How the results depend on the processing

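No call of the 8 genes changed under a pseudocount of 0.1, no filter, TPM scaling, quantile normalization, the 6 libraries of a comparison alone, a replicate block or leaving out each library. The unadjusted p did depend on the controls kept. Without control 3, 4 of the 8 were under 0.05 by limma in PD-1 against control, and 459 of all 13990 genes. In LY500307+PD-1 against control 6 of the 8 were, and 654 of all genes. Without control 2, 1 of the 8 was in that comparison, and 838 of all genes. The proteases follow each other and were chosen on the controls, so these counts are a description. Of 288 alternative log2 fold changes, 17 changed sign, all by leaving out a library, and the smallest limma adjusted p was 0.821. With 1 library left out, PD-1 against control ran from -0.53 to 2.30 for Mcpt4, -0.79 to 2.07 for Tpsab1, -0.67 to 2.11 for Tpsb2, -0.58 to 1.83 for Cma1, -0.33 to 1.77 for Cpa3, -0.18 to 0.15 for Kit, -0.32 to 1.01 for Fcer1a and -0.19 to 0.56 for Hdc. LY500307+PD-1 against control ran from -0.34 to 2.51 for Tpsab1, -0.35 to 2.43 for Tpsb2, -0.050 to 2.05 for Cpa3 and -0.042 to 0.45 for Hdc. The other genes kept their sign there. They ran from 0.36 to 3.19 for Mcpt4, 0.35 to 2.75 for Cma1, 0.15 to 1.48 for Fcer1a and -0.56 to -0.23 for Kit. LY500307+PD-1 against PD-1 ran from -0.017 to 0.93 for Tpsb2, -0.11 to 0.68 for Cpa3 and -0.30 to 0.46 for Hdc. The other genes kept their sign there too. They ran from 0.58 to 1.11 for Mcpt4, 0.59 to 1.33 for Cma1 and 0.081 to 1.03 for Tpsab1. Fcer1a ran from 0.21 to 0.93 and Kit from -0.47 to -0.23. The number of all genes called was 0 with all libraries and ran from 0 to 1 in PD-1 against control (1 without control 1, PD-1 replicate 1 or PD-1 replicate 3). It ran from 0 to 2 in LY500307+PD-1 against control (2 without control 2 or LY500307+PD-1 replicate 2) and from 0 to 2 in LY500307+PD-1 against PD-1 (2 without PD-1 replicate 1). Without the filter 0 genes were called, and 737, 1087 and 900 of 27447 genes had an unadjusted p under 0.05.

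Correlations with Cpa3 were recomputed in the 6 treated libraries and without each library, both chosen after seeing the data. Treated libraries gave 0.795 for Mcpt4, 0.855 for Cma1, 0.601 for Ms4a2 and -0.297 for Hdc. Without control 1 and control 3, Ms4a2 was at 0.668 and Hdc at -0.268. With 1 library left out, r ran from -0.080 to 0.53 for Kit, from -0.14 to 0.58 for Hdc and from 0.679 to 0.825 for Ms4a2. The cause was not tested.

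With the replicate number as a block, 0 genes were called in each comparison and the fold changes were the same, for example 0.96 for Mcpt4 in PD-1 against control. In the block fits 402, 701 and 533 genes had an unadjusted p under 0.05 by limma, against 342, 561 and 398 without the block, in the order of comparisons above. Deviations of same-numbered libraries from their group means had correlations from -0.12 to 0.27, and those of differently numbered libraries from -0.36 to 0.26. Whether a replicate number stands for a shared batch or a pairing was not tested. Groups of 3 with the control spread found here leave wide intervals for the proteases, and genes near 0, Ms4a2 above all, depend on few fragments.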
